A study of Rattus norvegicus with 28 samples.

Results

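The insulin-like growth factor (IGF) genes measured here were Igf1, Igf2, Igf1r, Igf2r and Igfbp2 to Igfbp7. They are 10 of the 17245 gene symbols that stand alone on a probe set of the array. They were taken by name, as the ligands, the receptors and the binding proteins of the IGF system. Each was read by 1 probe set, and none of these probe sets is shared with another symbol. All 10 had a mean level of at least 4 on the log2 scale and entered the test.

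The mRNA came from the intact wall of the aortic arch of untreated male Wistar rats on standard chow, whose age is not given in the sources used here. Computational fluid dynamics in other rats of the study had located a region of low wall shear stress (WSS) in the distal part of the inner curvature. It had also located a region of high WSS along the outer curvature. WSS was not determined in the rats used for the arrays. Pieces of each region from 5 animals were pooled, which gave 14 low WSS pools and 14 high WSS pools from 70 animals, 1 array per pool. By the study's methods the pools form 14 pairs of regions from the same animals. The labels give each pool a number within its region, and pairs were made here by that number. The same-number pools of pairs 1, 2 and 3 did not deviate together over all genes (correlations of 0.04, -0.01 and 0.00, against 0.23 to 0.48 in the other 11 pairs). Whether these 3 pairs are numbered correctly was not tested, and results that rest on them are given without them too. The regions differ in position along the arch as well as in flow, and these cannot be told apart in these data. The pools held all layers of the wall, so fewer cells of a type and less RNA per cell cannot be told apart either. Levels below are log2 values of the arrays, and every difference is low minus high WSS on that scale. The median of all probe sets was 4.88 to 5.00 on the high WSS arrays and 4.85 to 4.92 on the low WSS arrays.

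IGF-1 and IGF-2 are small secreted peptides related to insulin. Both bind the IGF-1 receptor, a tyrosine kinase that acts through adaptor proteins on the PI3K-Akt and the MAP kinase pathways and promotes growth, survival and migration of smooth muscle cells. The IGF-2 receptor, which also carries mannose 6-phosphate tagged enzymes to lysosomes, takes up IGF-2 and has no kinase activity. Most IGF outside cells is held by IGF binding proteins, which lengthen its life and keep it from the receptor until proteases such as pappalysin cut them.

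In short, 3 of the 10 genes differed between the regions. Igf2r and Igfbp7 were higher in low WSS, by 0.25 and 0.09 on the log2 scale, and Igfbp5 was lower, with a difference of -0.38. The 2 ligand genes had lower means in low WSS, each with a difference of -0.24, and did not pass the test. Igf1r, the signalling receptor, and Igfbp2, Igfbp3, Igfbp4 and Igfbp6 did not pass it either. A gene was called when its limma adjusted p (Benjamini-Hochberg, over 13383 probe sets) was under 0.05. Of all probe sets, 42.2% were called, 20.5% as higher and 21.7% as lower in low WSS. Of the called probe sets 48.5% were higher, and 62.4% were when each array was centred on its median. Counted by gene, 41.7% of the 11750 genes tested were called, against 30% of the IGF genes. With 10 genes this is not read as a result about them, and 6 were called with pairs 4 to 14 only. The median size of the IGF gene differences, 0.114, equalled that over the 11750 genes tested, 0.114.

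The promoters of the 3 called genes are shown because their mRNA differed between the regions, and they differ in base composition. Each is the 250 bases before the RefSeq start of the gene in the GRCr8 assembly, written 5′ to 3′ on the strand of the gene. Capitals mark the GC box GGGCGG, to which Sp family factors bind, and the CACCC box, to which Kruppel-like factors bind, on either strand.
Igf2r promoter, chr1:50526628-50526877, plus strand: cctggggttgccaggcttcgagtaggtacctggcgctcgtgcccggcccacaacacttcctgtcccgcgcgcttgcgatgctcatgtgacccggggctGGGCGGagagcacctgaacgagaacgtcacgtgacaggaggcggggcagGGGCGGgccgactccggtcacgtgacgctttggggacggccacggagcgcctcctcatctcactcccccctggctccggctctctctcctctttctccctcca
Igfbp5 promoter, chr9:81914188-81914437, minus strand: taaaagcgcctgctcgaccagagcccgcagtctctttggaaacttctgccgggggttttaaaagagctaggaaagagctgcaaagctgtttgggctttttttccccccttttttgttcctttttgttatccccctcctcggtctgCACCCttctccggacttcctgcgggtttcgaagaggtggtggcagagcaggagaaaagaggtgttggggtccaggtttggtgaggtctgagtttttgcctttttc
Igfbp7 promoter, chr14:31091486-31091735, plus strand: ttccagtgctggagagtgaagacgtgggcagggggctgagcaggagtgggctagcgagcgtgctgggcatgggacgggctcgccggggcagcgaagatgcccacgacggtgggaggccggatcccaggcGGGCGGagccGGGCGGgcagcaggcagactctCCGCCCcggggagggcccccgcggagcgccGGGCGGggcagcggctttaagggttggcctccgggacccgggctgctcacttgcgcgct
The Igf2r window had a GC content of 68.0% with 23 CpG and 2 GC boxes. The Igfbp7 window had a GC content of 74.4% with 26 CpG and 4 GC boxes. The Igfbp5 window had a GC content of 51.6% with 8 CpG, 1 CACCC box and no GC box. Over all 33469 rat promoters of this length, the median GC content was 51.2% and the median number of CpG was 5. GGGCGG was present in 30.5% of them and CACCC in 49.2%. The TATA box TATAAA, present in 12.9% of all promoters, was in none of these 3 windows. No occurrence of 1 motif overlapped one of another in them, and a match describes the letters only.

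Among the ligands, Igf1, the main effector of growth hormone, ranged from 9.48 to 10.49 in the high WSS pools with a median of 9.77. In the low WSS pools it ranged from 9.02 to 10.22 with a median of 9.70. The ranges overlapped, and 6 of the 14 low WSS pools lay below every high WSS pool. The mean was 9.83 ± 0.29 in high and 9.58 ± 0.40 in low WSS (SD, n = 14 pools each), a difference of -0.24 (SE 0.10, 95% interval -0.46 to -0.03, limma adjusted p = 0.0616). It was higher in low WSS in 4 pairs, which were pairs 1, 2, 3 and 8. It passed the test when pair 1, 2 or 3 was left out (limma adjusted p = 0.0364, 0.018 and 0.0159).

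Igf2, the imprinted ligand of fetal growth, was dim on the arrays. It ranged from 4.30 to 5.54 in the high WSS pools with a median of 4.95. In the low WSS pools it ranged from 4.15 to 5.33 with a median of 4.75, so the regions overlapped widely. The difference was -0.24 (SE 0.11, 95% interval -0.48 to -0.01, limma adjusted p = 0.0860), with a higher value in low WSS in pairs 1, 2, 3 and 9. It passed the test when pair 1 or 3 was left out (limma adjusted p = 0.0388 and 0.0218).

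Igf1r ranged from 9.17 to 9.64 in high WSS with a median of 9.49, against 9.34 to 9.68 in low WSS with a median of 9.54. The ranges overlapped from 9.34 to 9.64, and 2 of the 14 low WSS pools lay above every high WSS pool. The difference was 0.03 (SE 0.04, limma adjusted p = 0.580), with a 95% interval of -0.06 to 0.12.

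Igf2r was the IGF gene that separated the regions most regularly. It ranged from 8.66 to 9.04 in the high WSS pools with a median of 8.79, against 8.92 to 9.31 in the low WSS pools with a median of 9.03. The ranges overlapped between 8.92 and 9.04, and 7 of the 14 low WSS pools lay above every high WSS pool. The mean rose from 8.82 ± 0.11 in high to 9.06 ± 0.11 in low WSS (SD, n = 14), a difference of 0.25 (SE 0.04, 95% interval 0.17 to 0.32, limma adjusted p = 4.19e-05), or 1.19-fold. The low WSS pool was the higher in 14 of 14 pairs, with pair differences of 0.06 to 0.42. Of all probe sets, 9.74% had the same direction in all 14 pairs. Igf2r was the only IGF gene past the Bonferroni threshold over the probe sets tested here, which 7.5% of them passed. By p it stood at rank 967 of the 13383 probe sets.

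**Figure D1:**
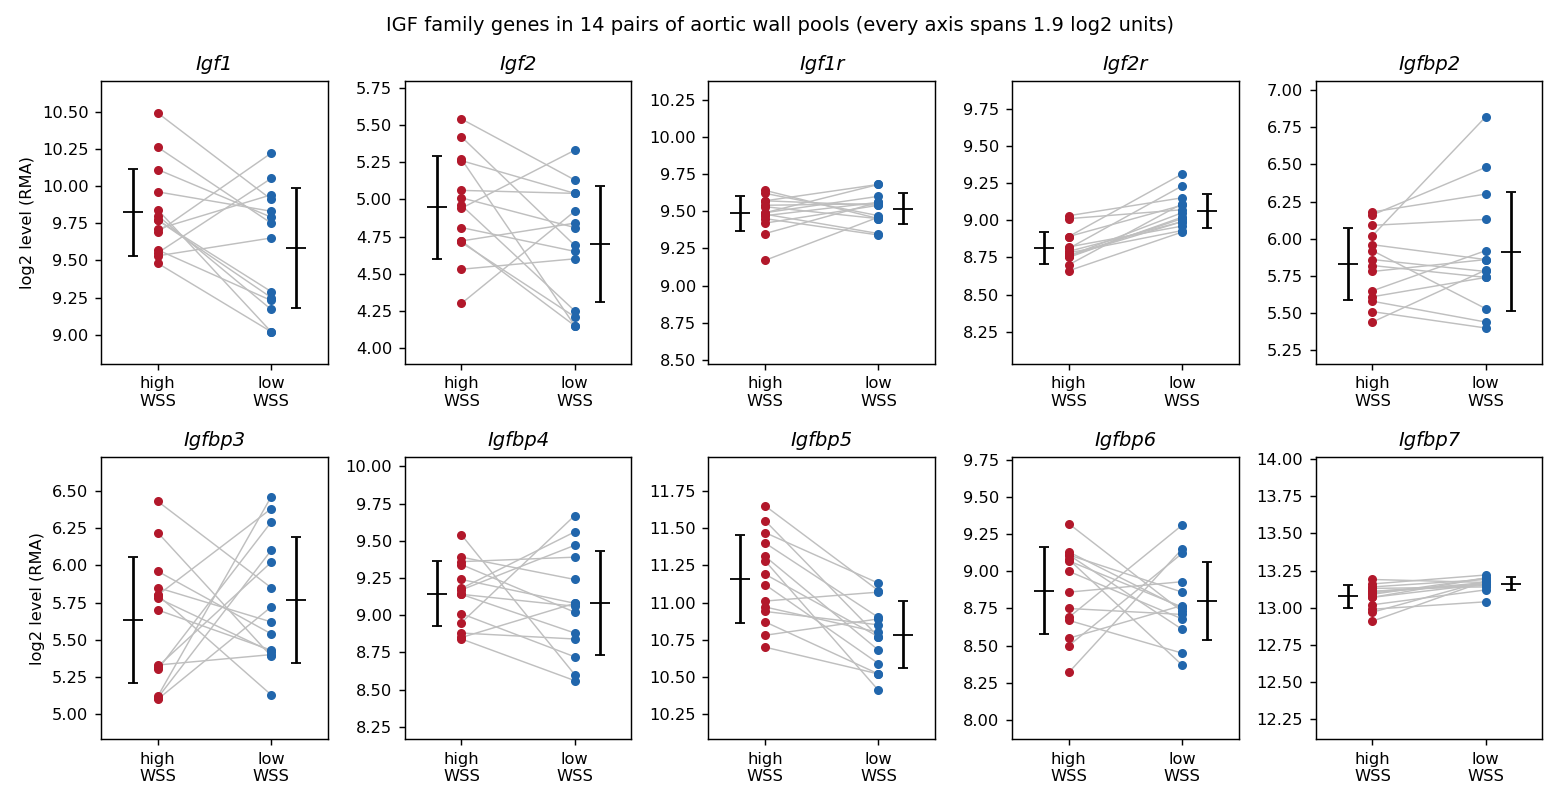
The log2 level of each IGF gene in the 28 pools (vertical axis), by region (horizontal axis). Points are pools, grey lines join the 2 pools of a pair, and bars are the mean and SD of 14 pools. Igf2r lines all run upwards from high to low WSS, those of Igfbp5 run downwards except in 2 pairs, and those of Igfbp3 cross.

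Igfbp5, a binding protein that also attaches to extracellular matrix, fell in low WSS. It ranged from 10.70 to 11.65 in the high WSS pools with a median of 11.15. In the low WSS pools it ranged from 10.41 to 11.13 with a median of 10.79, and 5 of these 14 pools lay below every high WSS pool. The mean went from 11.16 ± 0.29 to 10.78 ± 0.22 (SD, n = 14), a difference of -0.38 (SE 0.07, 95% interval -0.53 to -0.22, limma adjusted p = 0.000488), or 1.30-fold lower. It was lower in low WSS in all pairs but 2 and 3, in which the differences were 0.11 and 0.06. It did not pass the Bonferroni threshold.

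Igfbp7, a secreted protein of blood vessels that binds IGFs weakly, gave the 7th brightest probe set by mean level, and the highest single value in the whole table was 13.61. It ranged from 12.91 to 13.19 in the high WSS pools with a median of 13.09, against 13.04 to 13.22 in the low WSS pools with a median of 13.17. The pools of the 2 regions overlapped, with 4 low WSS pools above every high WSS pool. The mean rose from 13.07 ± 0.08 to 13.16 ± 0.04 (SD, n = 14), a difference of 0.09 (SE 0.03, 95% interval 0.02 to 0.15, limma adjusted p = 0.0272), or 1.06-fold. The low WSS pool was the higher in 13 of 14 pairs. The call was lost when the arrays were quantile normalized again (0.03, limma adjusted p = 0.408), with the smooth muscle genes Tagln and Cnn1 as covariates (0.06, limma adjusted p = 0.270), with the fibroblast marker mean as a covariate (0.08, limma adjusted p = 0.0709) and without pair 4 or pair 10 (limma adjusted p = 0.0556 and 0.0584).

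The other binding protein genes did not pass the test. Igfbp3, whose protein carries most IGF in blood, was the most variable member, with pair differences from -0.83 to 1.35 (SD 0.71). Its levels spanned 5.10 to 6.43 in high WSS against 5.13 to 6.46 in low WSS, and the mean difference of 0.14 (SE 0.17, 95% interval -0.21 to 0.49, limma adjusted p = 0.536) was far smaller than that spread. Igfbp2, which acts mostly as an inhibitor of IGF action, spanned 5.44 to 6.18 in high WSS against 5.40 to 6.82 in low WSS. Its difference was 0.09 (SE 0.07, 95% interval -0.07 to 0.24, limma adjusted p = 0.357). Igfbp4, an inhibitory binding protein and the main substrate of pappalysin, spanned 8.84 to 9.54 in high WSS against 8.56 to 9.67 in low WSS. Its difference was -0.06 (SE 0.09, 95% interval -0.26 to 0.14, limma adjusted p = 0.639). Igfbp6, which prefers IGF-2, spanned 8.32 to 9.32 in high WSS against 8.37 to 9.31 in low WSS. Its difference was -0.07 (SE 0.11, 95% interval -0.31 to 0.17, limma adjusted p = 0.651). For Igfbp3 and Igfbp6 the regions overlapped over nearly the whole range. For Igfbp2, 3 of the 14 low WSS pools lay above every high WSS pool and 1 lay below. For Igfbp4, 2 lay above and 3 below.

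**Figure D2:**
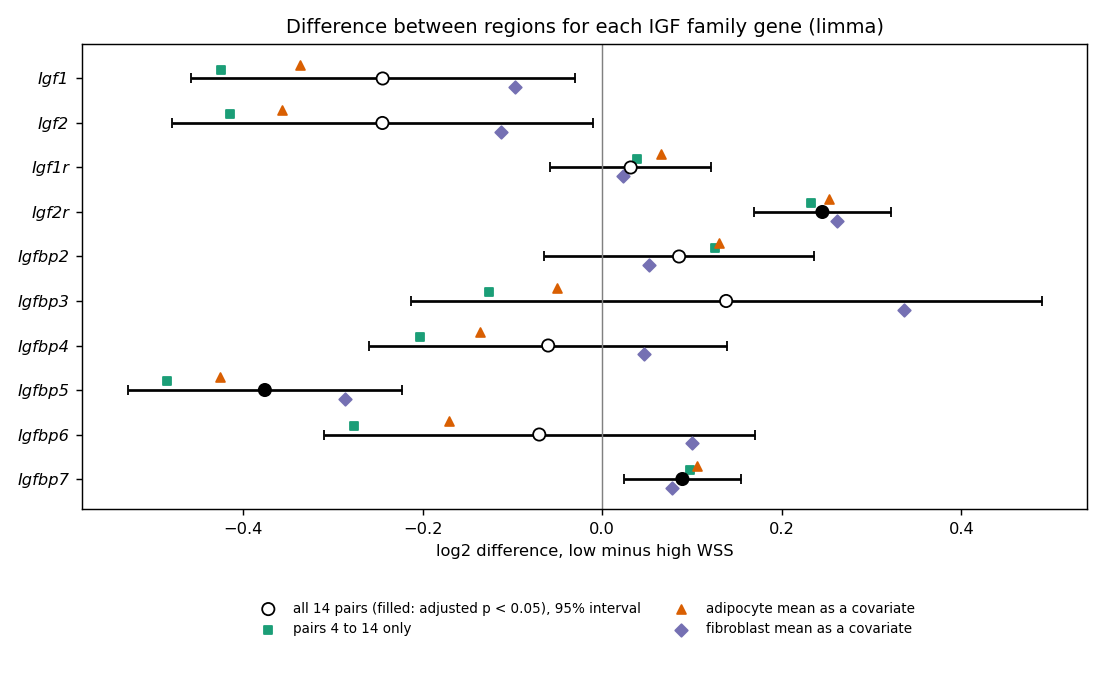
The limma difference of each IGF gene (horizontal axis, log2, low minus high WSS) over 14 pairs with its 95% interval, filled where the adjusted p was under 0.05, and the same with pairs 4 to 14 only or with a marker mean as a covariate. Igf2r and Igfbp7 stay above 0 and Igfbp5 below it in every setting drawn, while Igfbp3, Igfbp4 and Igfbp6 lie on both sides of 0.

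The pairs were not alike. In pairs 1, 2 and 3, Igf1, Igf2, Igfbp3, Igfbp4 and Igfbp6 were all higher in low WSS. In pairs 10 to 13 the same 5 genes were all lower in low WSS. Igfbp6 for example was higher by 0.62, 0.62 and 0.83 in the first 3 pairs and lay between -0.71 and 0.22 in the other 11. Igfbp5 differed by -0.09, 0.11 and 0.06 in the first 3 pairs and by -0.87 to -0.17 in the others. For Igf2r and Igfbp7 the first 3 pairs lay within the range of the others. For Igf1, Igfbp3, Igfbp4 and Igfbp6 each of the 3 low WSS pools of these pairs lay above each of their 3 high WSS pools, so exchanging numbers among the 3 pairs would leave the sign as it is. The means of fibroblast, endothelial and macrophage marker genes also stood apart in pairs 1, 2 and 3. The mean of 16 fibroblast genes differed by 0.15, 0.30 and 0.42 in these pairs and by -0.35 to 0.03 in the rest. The mean of 13 endothelial genes differed by 0.70, 0.75 and 0.80, against -0.62 to 0.25 in the rest. The mean of 15 fat cell genes differed by 1.66, 2.99 and 2.29, against -1.66 to 2.61, so these ranges overlapped. The mean of 19 macrophage and myeloid genes differed by 0.61, 0.65 and 0.42, against -0.40 to 0.22. The mean of 15 contractile smooth muscle genes differed by -0.28, -0.31 and -0.22 in pairs 1, 2 and 3, against -0.22 to 0.16, so these ranges met. The part of these cells in the IGF values was not tested.

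**Figure D3:**
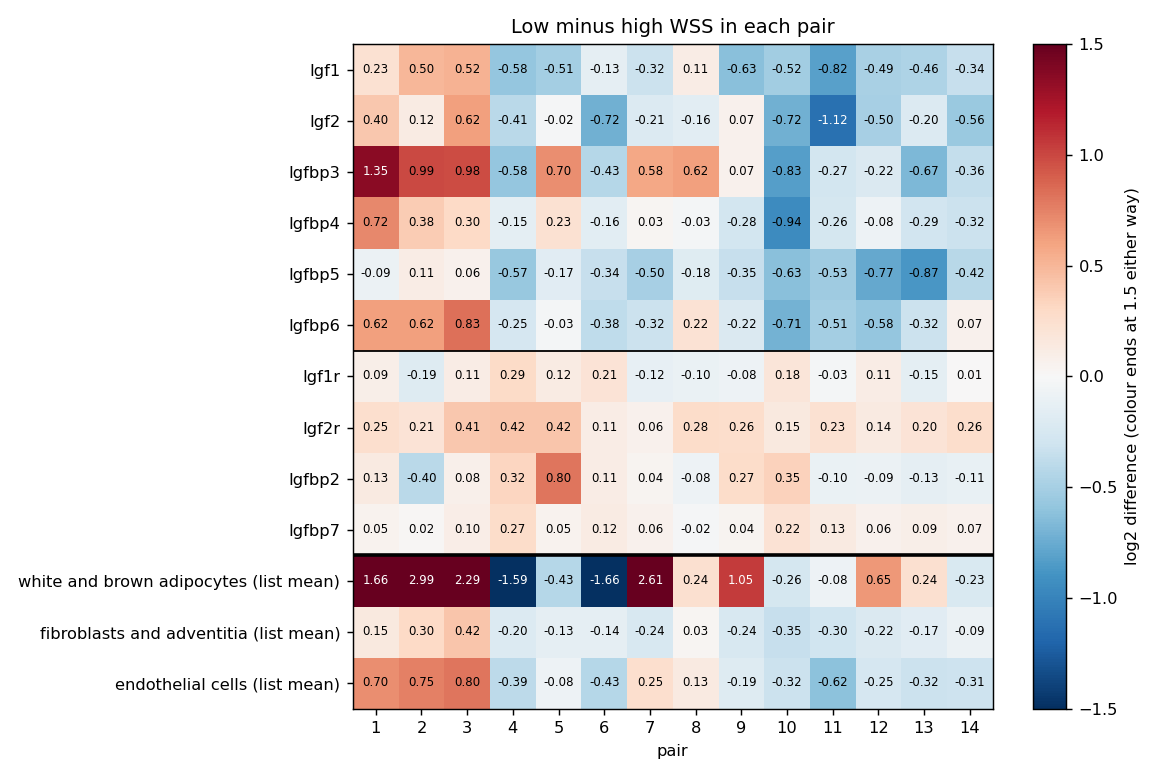
The log2 difference, low minus high WSS, of each IGF gene and of the mean over 3 cell type marker lists (rows) in each of the 14 pairs (columns), with the value printed in each cell. Igf1, Igf2, Igfbp3, Igfbp4 and Igfbp6 are above 0 in pairs 1 to 3 and mostly below 0 after them, and Igf2r is above 0 in every pair.

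With pairs 4 to 14 only, 6 of the 10 IGF genes passed the test in place of 3. The share of all probe sets that passed was 41.8%, against 42.2% with all pairs. Igf1 then differed by -0.42 (limma adjusted p = 0.00021), Igf2 by -0.41 (limma adjusted p = 0.00234) and Igfbp6 by -0.28 (limma adjusted p = 0.00845). Igfbp5 was at -0.48 (limma adjusted p = 2.95e-05) and Igf2r at 0.23 (limma adjusted p = 0.000487). These pairs were set apart with the values of all pairs known, so their calls are a description. With all 14 pairs and the fat cell mean as a covariate, Igf1 (-0.34, limma adjusted p = 0.00605) and Igf2 (-0.36, limma adjusted p = 0.0052) also passed. With the fibroblast mean as a covariate they did not, at -0.10 (limma adjusted p = 0.104) and -0.11 (limma adjusted p = 0.277), while Igf2r (0.26) and Igfbp5 (-0.29, limma adjusted p = 0.000253) passed. Igfbp3 was called only in that fit, at 0.34 (limma adjusted p = 0.0335).

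Because pairs 1 to 3 form a cluster of their own, the relation of the IGF genes to the fibroblast mean was taken within the other 11 pairs. Igfbp6 differences followed the fibroblast differences (Pearson r = 0.87, permutation p = 0.00051; Spearman rho = 0.73, permutation p = 0.0146). Of the 70 relations computed, 10 IGF genes with 7 cell type lists, this was the only one with an adjusted p under 0.05 for r (0.0357), and its adjusted p for rho was 0.205. Without the 2 pairs farthest from the median, r was 0.69. For Igf1 r was 0.77 (permutation p = 0.00687, adjusted p = 0.0962), with rho = 0.68 (permutation p = 0.0256, adjusted p = 0.298), and r was 0.66 without the 2 farthest pairs. For Igfbp5 r was 0.53 (permutation p = 0.0933, adjusted p = 0.353), and for Igf2r it was 0.32 (permutation p = 0.339, adjusted p = 0.578). With the endothelial mean r was 0.78 for Igfbp3 (permutation p = 0.00411, adjusted p = 0.0959; rho = 0.75, permutation p = 0.0112, adjusted p = 0.196) and 0.56 without the 2 farthest pairs. Some negative relations were about as strong and did not pass either. For Igf1r r was -0.78 with the Schwann cell and neuron mean (permutation p = 0.00361, adjusted p = 0.0959). It was -0.74 with the fat cell mean (permutation p = 0.00595, adjusted p = 0.0962). For Igfbp7 with the endothelial mean rho was -0.86 (permutation p = 0.00133, adjusted p = 0.0931), with r = -0.58. Over all 14 pairs, 6 of the 10 IGF genes had adjusted p under 0.05 for both r and rho with the fibroblast mean. The same 6 genes had it with the endothelial mean, and all these relations were positive. The fibroblast and endothelial means were themselves correlated (Pearson r = 0.87), so the counts are not separate. With the fat cell, smooth muscle or macrophage mean the count was 3 each. All 3 relations with the smooth muscle mean were negative, as was that of Igf1r with the fat cell mean (r = -0.61). An r of at least 0.7 with the fibroblast mean was reached by 6 IGF genes and by 4.6% of all genes tested. For the endothelial mean these were 6 and 7.57%, for the fat cell mean 1 and 5.57%. For the smooth muscle mean they were 1 and 3.48%, and for the macrophage mean 4 and 3.7%. Counts at this level leave out negative r, such as those of Igf1 (-0.73) and Igfbp3 (-0.75) with the smooth muscle mean. Within the other 11 pairs, 1 IGF gene had an adjusted p under 0.05 for r with the fibroblast mean and 0 with any of the other 6 lists. The counts by adjusted p were thus not kept without pairs 1 to 3.

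**Figure D4:**
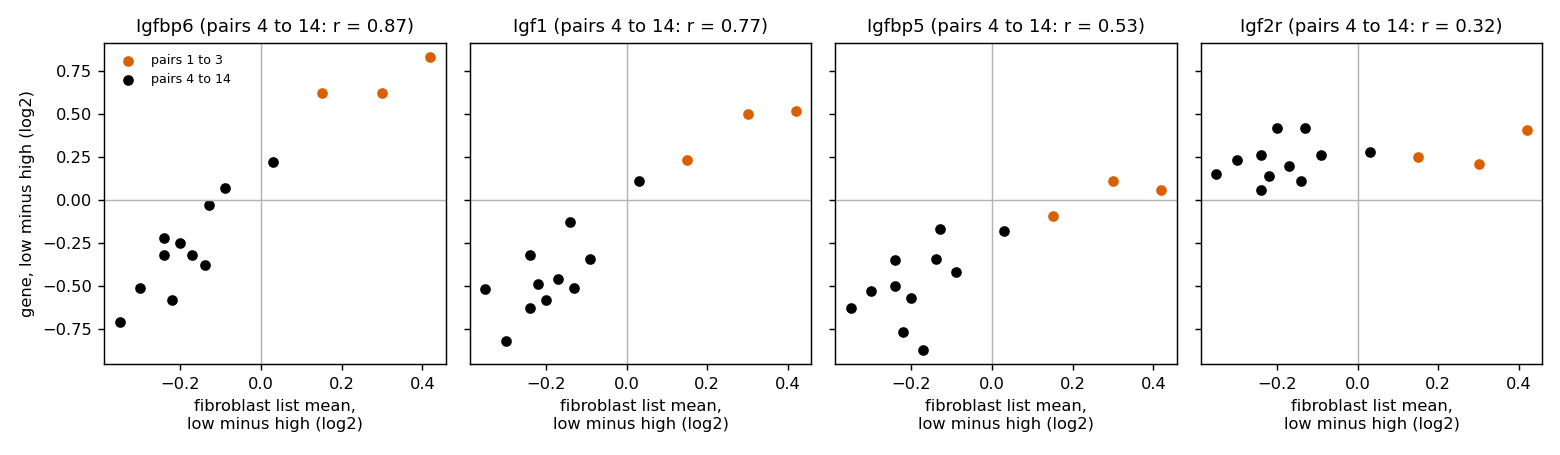
The difference of Igfbp6, Igf1, Igfbp5 and Igf2r in each pair (vertical axis, log2, low minus high WSS) against that of the mean over the fibroblast list (horizontal axis, same scale), 1 point per pair. Pairs 1 to 3 sit to the right of the other 11 in every panel, the r printed is that of pairs 4 to 14, and Igf2r is above 0 wherever the fibroblast mean lies.

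The endothelial mean lay between 6.25 and 7.15 in high and between 6.29 and 7.11 in low WSS, and none of its 13 genes was called by limma. The smooth muscle mean lay between 10.85 and 11.46 in high and between 10.83 and 11.28 in low WSS, with 2 of 15 genes called higher and 7 lower. The fibroblast mean lay between 9.67 and 10.24 in high and between 9.50 and 10.10 in low WSS, with 4 of 16 genes higher and 6 lower. The fat cell mean had the widest range, from 5.62 to 8.94 in high and from 5.67 to 9.00 in low WSS, with 2 of 15 genes called higher and 2 lower. Lpl (1.22, limma adjusted p = 0.0447) and Fabp4 (1.19, limma adjusted p = 0.0495) were the higher genes. Dio2 (-1.23, limma adjusted p = 5.27e-05) and Plin4 (-0.20, limma adjusted p = 0.00206) were the lower genes. The macrophage and myeloid mean spanned 6.08 to 6.80 in high against 6.12 to 6.86 in low WSS, with 6 of 19 genes called higher and 1 lower. In that list the leucocyte genes Lcp1 (0.85), Cd53 (0.66) and Itgb2 (0.48) rose in 14 of 14 pairs, while the macrophage gene Cd68 differed by 0.03 (limma adjusted p = 0.845). The gene called lower was Aif1, at -0.13 (limma adjusted p = 0.0281). Uncalled genes of that list lay on both sides of 0, from Cd163 at -0.27 (limma adjusted p = 0.121) to Csf1r at 0.19 (limma adjusted p = 0.146). Of 7 cardiac and skeletal muscle genes 3 fell and 1 rose, and Ckm, the muscle creatine kinase gene, was at -0.68 (limma adjusted p = 1.77e-07). Of 8 Schwann cell and neuron genes 1 fell. The part of these cells in the IGF differences was not tested beyond the covariates given.

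Genes that act on the IGF system were taken in lists, 1 probe set per gene. Of the 11750 genes tested, 41.7% were called, 19.7% as higher and 22% as lower in low WSS, and the share called is read against this. Among 10 tested genes for proteases that cut the binding proteins and for inhibitors of those proteases, 6 fell and 2 rose (80%), with a median difference of -0.236 against -0.005 over all genes. Pappa, which encodes pappalysin, the protease of IGFBP-4 and IGFBP-5, fell from 5.29 ± 0.27 to 4.60 ± 0.21 (SD, n = 14), a difference of -0.69 (SE 0.10, limma adjusted p = 3.31e-05), and was lower in 13 of 14 pairs. Pappa was dim, with a low WSS mean under the median of all probe sets on the low WSS arrays (4.85 to 4.92). Its inhibitor genes Stc2 and Stc1 fell as well, by 0.40 (SE 0.06, limma adjusted p = 2.06e-05) and by 0.32 (SE 0.07, limma adjusted p = 0.000675) on the log2 scale. The serine protease gene Htra1 rose by 0.27 (SE 0.04, limma adjusted p = 6.74e-05), and Mmp2, a gelatinase, by 0.14 (SE 0.03, limma adjusted p = 0.00213). Klk4, which fell by 0.26 (limma adjusted p = 0.000675), had a low WSS mean of 3.94, under the level of 4 asked of the overall mean. Igfbp4 and Igfbp5, the substrates of pappalysin, stood at differences of -0.06 and -0.38 as given above.

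Downstream of the receptors, 7 of 10 genes for the insulin receptor and its adaptors were called (70%), 2 higher and 5 lower, with a median difference of -0.13. The adaptor genes Shc1 and Grb2, which link receptor kinases to Ras, rose by 0.32 (SE 0.04, limma adjusted p = 3.98e-06) and by 0.33 (SE 0.04, limma adjusted p = 1.34e-05), each in 14 of 14 pairs. Gab1, a docking protein, fell by 0.28 (SE 0.04, limma adjusted p = 7.79e-05) on the log2 scale and was lower in all 14 pairs. Grb14, an inhibitor of the insulin receptor, fell by 0.33 (SE 0.06, limma adjusted p = 0.000148). The insulin receptor gene Insr (-0.20) and the docking protein genes Irs1 (-0.16) and Irs2 (-0.17) fell too. In the PI3K, Akt and mTOR list 6 of 20 genes were called (30%), 5 lower and 1 higher. Rptor, the mTOR complex scaffold, fell by 0.20 (SE 0.04, limma adjusted p = 0.000304) and was lower in all 14 pairs, and the kinase gene Akt2 rose by 0.16 (SE 0.06, limma adjusted p = 0.0286). The other lower genes were Foxo1 (-0.17), Tsc2 (-0.12), Pik3r1 (-0.13) and Foxo3 (-0.13). Without pair 2, 3 genes of this list were called in place of 6.

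Growth hormone acts upstream of Igf1. Of 9 tested genes in its pathway 3 were called (33.3%). The growth hormone receptor gene Ghr rose by 0.28 (SE 0.05, limma adjusted p = 0.000323). The feedback inhibitor genes Socs1 and Socs3 fell by 0.59 (SE 0.11, limma adjusted p = 0.000316) and by 0.33 (SE 0.07, limma adjusted p = 0.00162). Socs3 was dim, with a mean of 5.12 in high and 4.79 in low WSS. Jak2, Stat5a and Stat5b, the kinase and the transcription factors between the receptor and Igf1, differed by between -0.04 and 0.06 and did not pass the test.

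**Figure D5:**
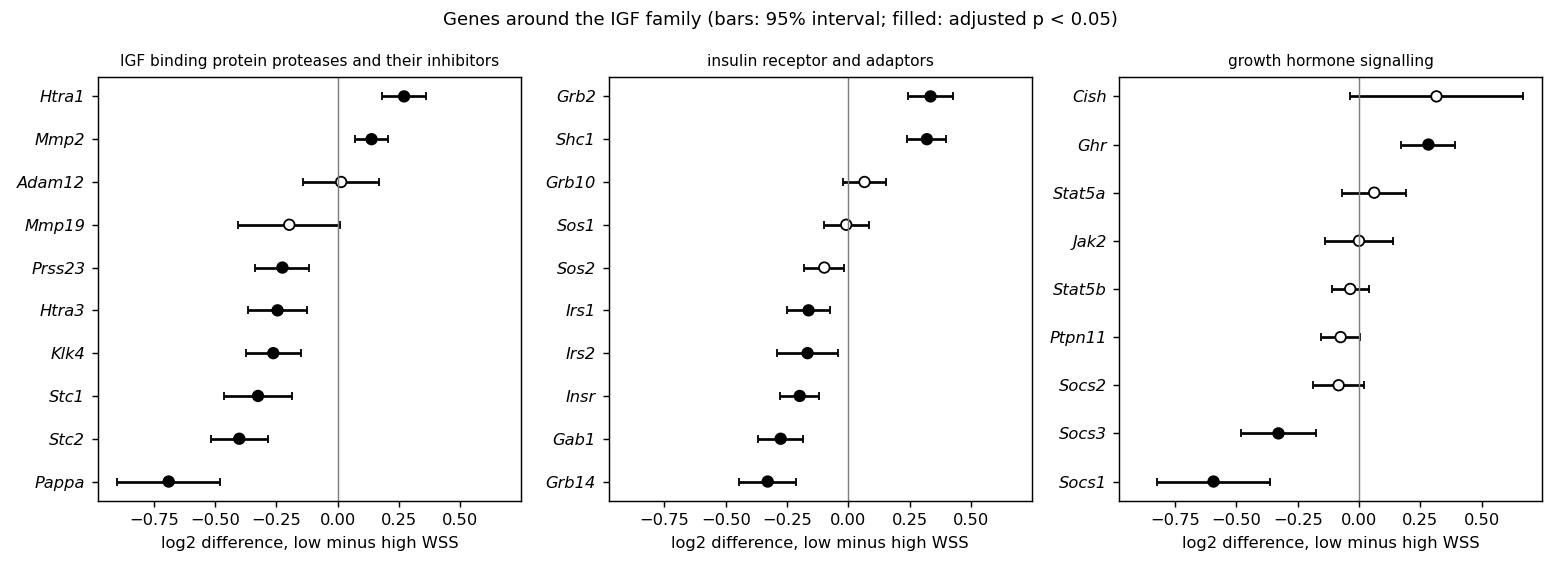
The limma difference (horizontal axis, log2, low minus high WSS) of the tested genes in 3 lists around the IGF family, with 95% intervals over 14 pairs, filled where the adjusted p was under 0.05. Pappa and Socs1 lie farthest to the left, at -0.69 and -0.59, and Grb2 and Shc1 lie to the right at 0.33 and 0.32.

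Igf2 and Igf2r are imprinted in rodents. Of 11 other growth genes tested that are known as imprinted in mouse or rat, 3 fell and 1 rose (36.4%). Meg3, a noncoding RNA gene, fell by 0.46 (SE 0.07, limma adjusted p = 7.53e-05) and was lower in all 14 pairs. The transcription factor gene Plagl1 rose by 0.37 (SE 0.11, limma adjusted p = 0.00953). Dcn, for the proteoglycan decorin, was at -0.10 (limma adjusted p = 0.0424) and the zinc finger gene Zim1 at -0.22 (limma adjusted p = 0.0485). H19, the neighbour of Igf2 that is expressed from the other parental allele, differed by 0.10 (SE 0.14, limma adjusted p = 0.62). Without pair 4, 5, 10 or 13, 2 of these genes were called in place of 4. Of 17 other genes of the IGF system, 12 had a mean level under 4, among them Igfbp1, Igfals and the mRNA binding protein genes Igf2bp1 and Igf2bp3. Of the 5 tested, Crim1, which encodes a membrane protein with an IGFBP-like domain, fell by 0.32 (SE 0.05, limma adjusted p = 8.01e-05). Without pair 1, 5 or 8, 2 of the 5 were called.

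Over the 28 pools, the levels most like Igf2r were those of Emc3 (Pearson r = 0.947), Ltbp2 (r = 0.897) and Plat (r = 0.896). Emc3 encodes a subunit of a membrane protein insertase, Ltbp2 a microfibril protein and Plat the tissue plasminogen activator. Most like Igfbp5 were Aldh1a2 (r = 0.893), for a retinoic acid synthesising enzyme, Bicc1 (r = 0.887), for an RNA binding protein, and Pde7b (r = 0.854), for a cyclic AMP phosphodiesterase. Most like Igfbp7 were Rpl29l2 (r = 0.850), Eef1g-ps4 (r = 0.823) and Rpl29 (r = 0.783), of which Rpl29 encodes a ribosomal protein. These correlations are across pools that share the region difference, and they are given as a description.

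Several binding protein genes lie beside each other or beside a tensin gene. In the gene order of GRCr8, Igfbp2 and Igfbp5 are neighbours. Tns1, Tns2, Tns3 and Tns4, which encode proteins that bind integrins, lie within 2 genes of Igfbp5, Igfbp6, Igfbp3 and Igfbp4. Tns3 fell by 0.50 (SE 0.06, limma adjusted p = 7.31e-06), Tns2 by 0.23 (SE 0.04, limma adjusted p = 0.000122) and Tns1 by 0.10 (SE 0.03, limma adjusted p = 0.0252). Tns4, with a mean level of 4.14, was at -0.15 (SE 0.07, limma adjusted p = 0.105). Thus Tns3 fell beside Igfbp3 (0.14) and Tns2 beside Igfbp6 (-0.07), which did not pass the test, and Tns1 fell beside Igfbp5 (-0.38), which did. These neighbours were picked after their values were seen.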

How the data were processed

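Total RNA of 28 aortic wall pools was hybridised by the authors to Affymetrix Rat Gene 1.1 ST arrays. The deposited values are log2 levels made by the authors with RMA (background correction, quantile normalization, summary per probe set). The version of RMA is not given in the sources used here. Levels over background limit precision for dim probe sets, and arrays give no count or depth.

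Gene symbols came from the platform annotation, in which 18644 of 29214 probe sets carry 1 symbol. Probe sets with no symbol or a mean level under 4 were left out, as in the study's methods, which left 13383. Low and high WSS were compared with limma 3.58.1 in R 4.3.3 (pair number as a block, moderated t by empirical Bayes, two-sided, Benjamini-Hochberg at 0.05). A Bonferroni threshold at 0.05, as in the methods, was set over these probe sets (p under 3.74e-06), whose number and threshold differ from the study's. Pairing followed the pool numbers of the labels, since the methods give 14 pairs. Deviations of same-numbered pools correlated at -0.01 to 0.48. Of the 14 correlations 11 exceeded 0.1, and those of different numbers averaged -0.017.

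In simulated data, 12 of 50 probe sets changed by 0.15 on the log2 scale passed, as did 40 at 0.3, 50 at 0.6 and 49 at 1, with 9 false calls among 13383 probe sets. Far fewer probe sets were changed there than the 42.2% called in the data, which makes the adjusted p stricter in the simulation. These pass rates therefore do not carry over to the data. Cell type lists were related to the IGF genes over pair differences with two-sided permutation tests (100000 resamples). The IGF genes and the gene lists were chosen with earlier results of these data known. In each pathway list the text names up to 4 genes with the smallest adjusted p and those of the other direction past the threshold if 3 or fewer, and for each called IGF gene the 3 genes most like it. Other genes named were chosen after their values were seen. Alternatives were the paired t-test of the methods, no block, trend and robust estimation, array weights, other level and annotation filters, the mean of a gene's probe sets, other scalings, marker covariates, pairs 4 to 14 and each pair left out. The fibroblast and endothelial covariates, the relations to cell type lists other than fat cells and those within pairs 4 to 14 were added after the data were seen. Promoters are from RefSeq (GRCr8), and 10 of 10 genes matched.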

Additional observations from a re-analysis of the deposited data

How the results depend on the processing

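Of the 3 called IGF genes, Igf2r and Igfbp5 kept direction and call in every alternative run, and Igfbp7 lost its call as given above. The number of IGF genes called is given with the share called over everything tested in brackets. It was 3 in the main comparison (42.2%), 5 with array weights (48.1%) and 5 with the fat cell mean as a covariate (42.2%). It was 5 with the endothelial mean as a covariate (46.2%), 6 with pairs 4 to 14 only (41.8%) and 4 with a mean level of at least 6 (49.7%). It was 2 with Tagln and Cnn1 as covariates (26.1%), and 3 in the other alternatives that used all pairs (30.3% to 44.3%). With 1 pair left out it ran from 2 to 5 (38.9% to 43.7%). Igf1 passed with array weights (limma adjusted p = 0.00682), the endothelial covariate (0.00202), a mean level of at least 6 (0.0478), arrays quantile normalized again (0.0392) and without pair 1 (0.0364), 2 (0.018) or 3 (0.0159). Igf2 passed with array weights (0.0125), the endothelial covariate (0.00595) and without pair 1 (0.0388) or 3 (0.0218). The number of probe sets called fell from 5644 to 3492 with Tagln and Cnn1 as covariates (those past Bonferroni from 1004 to 305), and ran from 5212 to 5845 with 1 pair left out. Without the replicate block, 4856 probe sets and 3 IGF genes were called, the same genes. Centring the arrays on their medians raised the share of called probe sets that were higher in low WSS from 48.5% to 62.4%, of 5927, and moved the median of all probe sets from -0.0032 to 0.0348. Differences that changed sign were all uncalled. They were Igfbp3 at -0.01 with array weights, -0.051 with the fat cell covariate and -0.126 with pairs 4 to 14, Igfbp4 at 0.054 with Tagln and Cnn1, 0.046 with the fibroblast covariate and 0.007 without pair 10 (-0.12 to 0.007 with 1 pair left out), and Igfbp6 at 0.1 with the fibroblast covariate. The cause was not tested. Among the lists, the count of other IGF system genes called went from 1 to 2 without the block, with array weights, both scalings, pairs 4 to 14 and the endothelial covariate, and to 4 with no level filter. Imprinted genes called went from 4 to 2 with no filter, a mean level of at least 6 or pairs 4 to 14, and protease and inhibitor genes from 8 to 5 at that level, where fewer genes are tested. With a mean level of at least 6, Igf2, Igfbp2 and Igfbp3 were not tested. All 3 are dim on these arrays, which limits their precision.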
